A study of Mus musculus with 2 samples.

Results

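Peaks narrower than 20 bp were examined in a list of accessible regions from the embryonic mouse striatum. They were chosen by width alone, as the deposited end position minus the start position, and 1405 of the 87174 peaks in the list (1.61%) met that limit. Nuclei came from the striatum, the main input nucleus of the basal ganglia, of wild-type E14.5 mouse embryos, with C57BL/6J and CD1 given as strain background. They went into 2 single-nucleus ATAC-seq libraries prepared with droplet kits of 10x Genomics. Whether the libraries came from separate embryos is not stated. Both libraries belong to 1 group, carry no mutation or treatment by their labels, and share 1 deposited list of positions on mm10. The list holds no read count, score or sample, so depth is unknown, no value has a replicate error, and no test over samples could be made. As a check of the labelled tissue, a peak of at least 1000 bp lay within 1000 bp of an end of 15 of 15 ganglionic eminence regulators and 17 of 20 striatal projection neuron factors, and also of 14 of 16 cortical excitatory lineage genes and 13 of 14 housekeeping genes, against 2 of 12 microglia, 2 of 12 liver, 4 of 10 erythroid, 5 of 11 skeletal muscle, 6 of 12 endothelial and mural and 6 of 10 oligodendrocyte genes. Radial glia genes and mature striatal markers had 16 of 18 each, pan-neuronal genes 14 of 15 and interneuron genes 12 of 14. No share over all protein-coding genes stands beside these counts. Wide peaks thus do not separate striatal from cortical genes here. Intervals below are exact 95% intervals that cover the counting of peaks only. Differences between width classes carry 95% normal-approximation intervals of the same kind.

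In ATAC-seq a transposase inserts adapters where DNA is open, chiefly at promoters, enhancers and other sites held by transcription factors. Insertions pile up over such sites, and a peak is a stretch where the pile rises above a threshold. Nucleosome-free sites are usually far longer than a handful of bases, so a peak of a few bases is shorter than the stretch of open DNA that a bound factor normally leaves. The width of a peak thus tells where a signal crossed a threshold, and it need not be the size of the open site. The sources used here do not name the program that called these peaks or its threshold.

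The width limit fell inside a rise in the number of peaks toward the smallest widths. There were 149 peaks of 1 bp, 335 of 2 to 4 bp, 376 of 5 to 9 bp and 545 of 10 to 19 bp. Per bp of width this amounted to 149, 112, 75.2 and 54.5 peaks, against 41.4 in peaks of 20 to 39 bp and 42.0 in peaks of 40 to 99 bp. The counts therefore flattened near the limit. Just inside it, 51 peaks were 18 bp wide and 47 were 19 bp wide, and just outside it 33 were 20 bp and 43 were 21 bp wide. The most frequent widths in the list were 400 to 419 bp, with 2967 peaks. The median width of the narrow peaks was 7 bp, and together they covered 11.6 kb, or 0.0149% of all peak bases. Widths chose these peaks, so the shape of the width counts is a description.

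**Figure D1:**
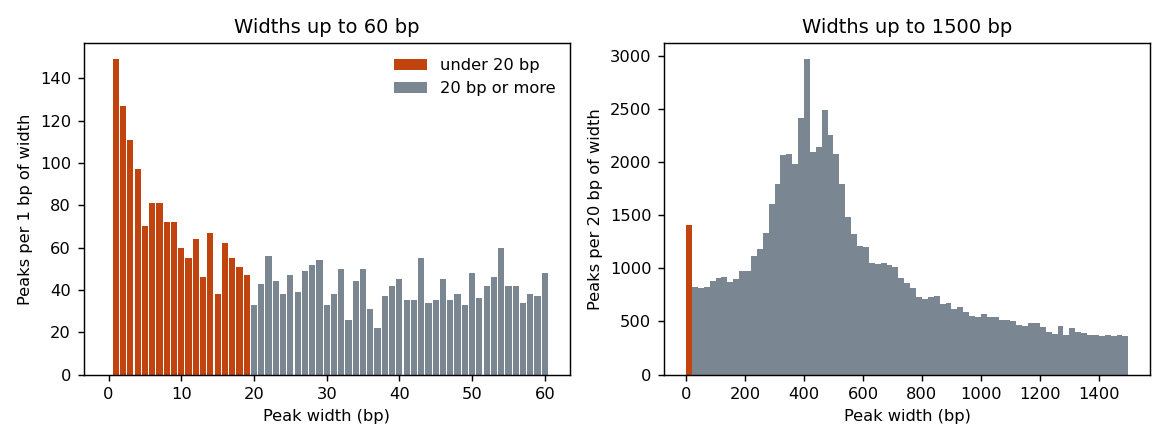
Number of peaks at each width, for widths up to 60 bp (left, 1 bp steps) and up to 1500 bp (right, 20 bp steps); peaks under 20 bp are in orange and wider ones in grey. Counts fall from 149 peaks at 1 bp to 47 at 19 bp, and the main mode lies at 400 to 419 bp.

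Some narrow peaks lay in promoters, where their bases can be read. The RefSeq promoter table of GRCm38.p6, the assembly that mm10 names, holds 32851 windows from 250 bases before to 50 after a start site, and was used to look at them. Of these windows, 13 met a narrow peak and 10 of the 13 belonged to protein-coding genes. The 4 genes whose narrow peak had its midpoint nearest to the start site are given, because they show how few bases such a peak holds. Each stretch runs 5′ to 3′ along the gene, from 100 bases before to 30 bases after the start, and capitals mark the narrow peak. The capitals assume that deposited starts count from 0, which the file does not state. If starts count from 1, each marked stretch gains 1 base at its lower coordinate.
Sgms1, minus strand, chr19:32349287-32349416: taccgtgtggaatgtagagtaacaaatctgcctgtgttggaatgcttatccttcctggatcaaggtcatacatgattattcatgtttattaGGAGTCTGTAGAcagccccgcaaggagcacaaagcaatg
Dab2ip, plus strand, chr2:35558358-35558487: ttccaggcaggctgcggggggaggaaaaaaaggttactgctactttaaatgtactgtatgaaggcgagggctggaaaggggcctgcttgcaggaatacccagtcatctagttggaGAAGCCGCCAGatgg
Casp4, plus strand, chr9:5308760-5308889: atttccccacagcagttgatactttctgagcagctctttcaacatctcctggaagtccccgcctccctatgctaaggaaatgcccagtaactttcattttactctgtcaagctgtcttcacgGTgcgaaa
Bpi, plus strand, chr2:158258141-158258270: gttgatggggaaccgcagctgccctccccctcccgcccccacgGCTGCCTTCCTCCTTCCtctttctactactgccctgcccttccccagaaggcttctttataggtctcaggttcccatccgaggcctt

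Sgms1 encodes a sphingomyelin synthase, and its 12 bp peak had its midpoint 3 bp upstream of the start site shown. Sgms1 has 4 start sites in the table, and 3 of them lay under peaks of at least 1000 bp, the widest of 3656 bp. At Dab2ip, which encodes a Ras GTPase-activating protein, the 11 bp peak lay 19.5 bp downstream of its start. The other 3 start sites of Dab2ip also lay under peaks of at least 1000 bp, the widest of 5093 bp. In both genes the narrow peak lay at or beside the remaining start site. Peaks of the list are at least 501 bp apart, so a start this close to a narrow peak could lie under no wide peak. Casp4, which encodes an inflammatory caspase, had a 2 bp peak 22 bp downstream of the start shown and no peak over either of its 2 start sites. Its nearest peak was 44520 bp away. Bpi, which encodes a bactericidal protein, had a 17 bp peak 49.5 bp upstream of its only listed start and a peak of 541 bp at 526 bp from it. Next in distance, the non-coding gene Gm38851 had a 1 bp peak at -72.5 bp relative to its start, 17172 bp from its nearest peak. For 9 of the 11 genes with a whole narrow peak in a promoter window, no start site lay under a peak of 1000 bp or more. For genes with 1 listed start, or with starts close together as in Casp4, the spacing of 501 bp fixed this in advance. The count is therefore no trait of these genes.

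The promoter windows met by narrow peaks were poorer in CpG than those met by wide peaks. Their median was 6 CpG dinucleotides per 300 bases (interval 3 to 12, n = 13), against 21 (21 to 22, n = 14614) in windows met by a peak of 1000 bp or more. Windows met by a peak of 200 bp to under 500 bp also had a median of 6 (5 to 6, n = 508), and windows with no peak had 3 (3 to 3, n = 15954). Median GC content was 54.3% (46.0 to 62.0) in windows met by narrow peaks and 62.0% (62.0 to 62.3) in those met by wide peaks. The GC box, searched as GGGCGG on both strands, was in 2 of the 13 windows (15.4%, interval 1.92 to 45.5), in 66.1% of windows met by wide peaks and in 35.7% of all windows. The core of homeodomain sites, searched as TAATTA on both strands, was in 0 of the 13 (interval 0 to 24.7) and in 5.29% of all windows. With 13 windows, 1 gene with 2 overlapping windows among them, these shares are coarse.

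Relative to genes, narrow peaks were at gene ends about as often as other peaks below 500 bp, and far less often than wide ones. A peak was put at a gene end when its midpoint lay within 1000 bp of either end of an annotated RefSeq gene of any kind. This held for 114 narrow peaks (8.11%, interval 6.74 to 9.67), 7.81% of medium peaks, defined as 200 bp or wider but under 500 bp, 12.3% of peaks from 500 to under 1000 bp and 46.4% of peaks of 1000 bp or more. Narrow peaks minus medium peaks gave a difference of 0.307 percentage points (interval -1.15 to 1.77). Narrow peaks minus peaks of 1000 bp or more gave -38.3 points (-39.8 to -36.7). Ends of protein-coding genes took 56 narrow peaks (3.99%). Of the 55 of these on chromosomes of the promoter table, which here excludes chromosome 18, 17 (30.9%, interval 19.1 to 44.8) lay within 1000 bp of an annotated start site, against 77.3% of peaks of 1000 bp or more. Most narrow peaks at ends of protein-coding genes were thus not near a listed start of such a gene.

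A larger share of narrow peaks than of medium or wide peaks lay inside protein-coding genes. Bodies of protein-coding genes, away from gene ends, held 764 narrow peaks (54.4%, interval 51.7 to 57.0), against 48.9% of medium peaks and 33.2% of peaks of 1000 bp or more. The difference from medium peaks was 5.43 points (2.77 to 8.10), and that from peaks of 20 to 39 bp was 3.65 points with an interval that held 0 (-0.635 to 7.94). A further 87 narrow peaks (6.19%) lay only inside other genes and 440 (31.3%, interval 28.9 to 33.8) between genes. Protein-coding genes longer than 100 kb contained 35.5% of narrow peaks and 31.6% of medium peaks. The median distance from a narrow peak to the nearest gene end was 11087.5 bp (interval 9778.5 to 12391). It was 13589.5 bp in peaks of 20 to 39 bp, 12293.2 bp in medium peaks and 1395.5 bp in peaks of 1000 bp or more.

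**Figure D2:**
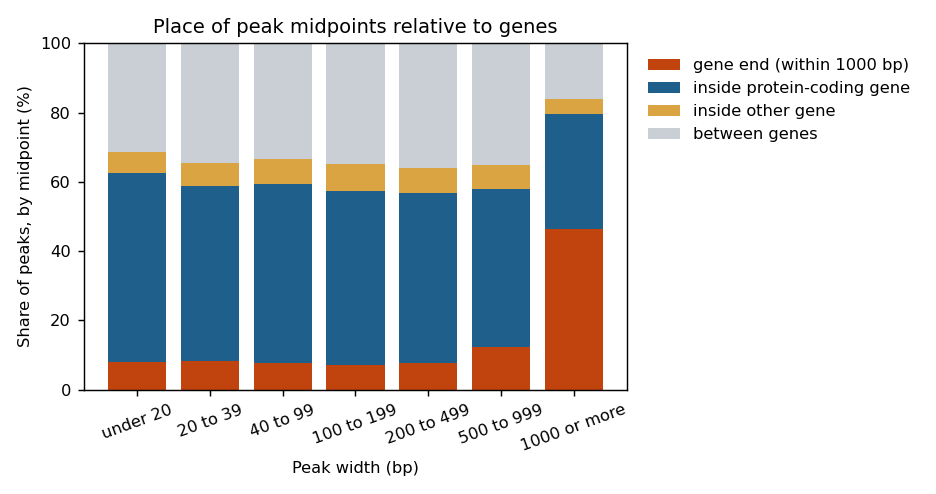
Share of peak midpoints at gene ends, inside protein-coding genes, inside other genes and between genes, for 7 width classes from under 20 bp to 1000 bp or more. The first 5 bars have 7.07% to 8.21% at gene ends and the widest class 46.4%, while the share inside protein-coding genes is 54.4% in narrow and 48.9% in medium peaks.

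Around start sites of protein-coding genes, narrow peaks were more frequent than medium peaks on the downstream side, from 1000 to 5000 bp into the gene. Of the 1361 narrow peaks on chromosomes with start sites, 31 (2.28%, interval 1.55 to 3.22) had their midpoint over 1000 and up to 2000 bp downstream of the nearest start, against 0.679% of medium peaks. The difference was 1.60 points (0.800 to 2.40). In the mirrored stretch upstream, 11 narrow peaks (0.808%) compared with 0.738% of medium peaks, a difference of 0.0708 points (-0.416 to 0.557). From beyond 2000 to 5000 bp downstream the shares were 4.63% for narrow peaks, 3.79% for peaks of 20 to 39 bp and 2.79% for medium peaks. In the window from 250 bp upstream to 50 bp downstream there were 9 narrow peaks (0.661%), against 0.639% of medium peaks and 11.0% of peaks of 1000 bp or more. Peaks of 20 to 39 bp had 1.77% in the step from 1000 to 2000 bp downstream. Narrow peaks differed from them by 0.510 points with an interval that held 0 (-0.703 to 1.72). Peaks of 1000 bp or more had 1.52% in that step. The difference from these was 0.759 points, and its interval also held 0 (-0.0480 to 1.57).

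**Figure D3:**
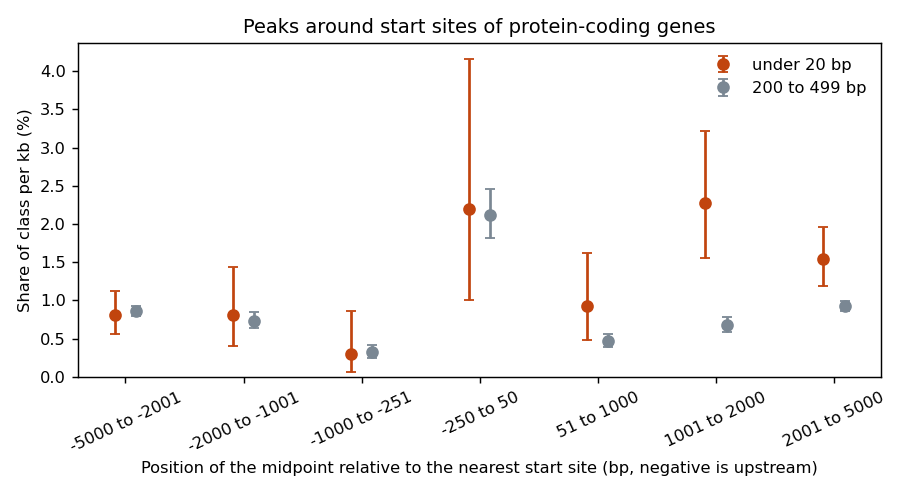
Share of narrow peaks (orange) and of medium peaks (grey) per kb, by position of the midpoint relative to the nearest start site of a protein-coding gene; points are shares and bars exact 95% intervals. Narrow peaks stand at 2.28% per kb against 0.679% per kb in the step from 1000 to 2000 bp downstream, while the upstream steps overlap.

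No narrow peak touched a wider region, and the list itself bounds how close they could come. The smallest gap between any neighbouring peaks was 501 bp, which 3 narrow peaks had. Whether closer regions were joined before deposit is not stated. Up to 1000 bp from its edge, 280 narrow peaks (19.9%, interval 17.9 to 22.1) had another peak, against 17.3% of peaks of 20 to 39 bp, 10.9% of medium peaks and 15.9% of peaks of 1000 bp or more. The remaining 1125 narrow peaks (80.1%) had none. Narrow peaks exceeded medium peaks by 8.99 points (6.87 to 11.1) and peaks of 1000 bp or more by 4.05 points (1.91 to 6.18). From peaks of 20 to 39 bp they differed by 2.66 points, with an interval that held 0 (-0.657 to 5.97). Measured between midpoints, 7.12% of narrow peaks had another within 1000 bp, and their excess over medium peaks was 5.31 points. Among peaks between genes the excess was 4.31 points. The median gap to the nearest peak was 3800 bp (interval 3388 to 4241) for narrow peaks, 5732.5 bp for medium peaks and 4401.5 bp for peaks of 1000 bp or more.

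Close neighbours were more frequent than around medium peaks in each 250 bp step of distance up to 1750 bp, where the intervals did not overlap. Of all sides of narrow peaks, 6.12% (interval 5.27 to 7.07) met the next peak within 750 bp, against 5.92% (4.83 to 7.17) of sides of peaks of 20 to 39 bp and 3.26% of sides of medium peaks. Among sides still without a neighbour, the shares from beyond 1500 to 1750 bp were 3.20% for narrow peaks and 1.94% for medium peaks. From beyond 2500 to 2750 bp they were 1.57% (1.08 to 2.19) for narrow peaks and 1.73% for medium peaks, so the classes overlapped there. Far neighbours were also present: 361 narrow peaks (25.7%) had no peak within 10 kb and 56 (3.99%) none within 50 kb. In medium peaks these shares were 34.6% and 5.36%, and in peaks of 20 to 39 bp 30.1% and 3.87%.

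**Figure D4:**
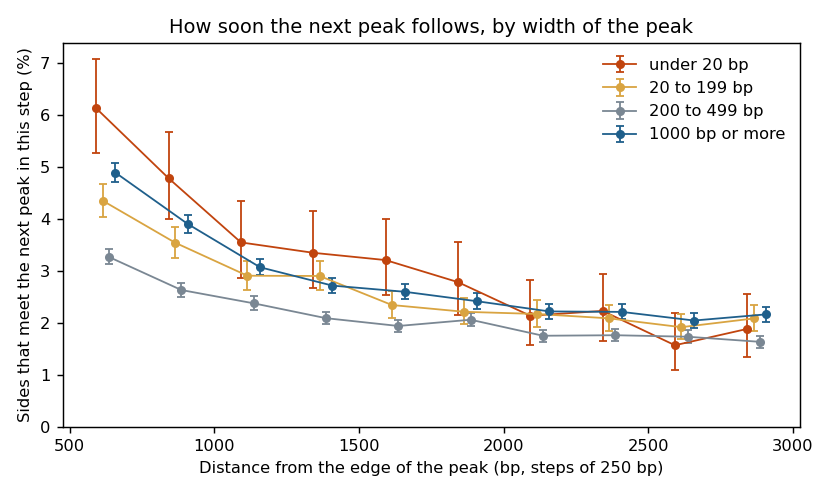
Share of peak sides that meet the next peak within each 250 bp step of distance, among sides with no peak closer, for 4 width classes; bars are exact 95% intervals. Of the 4 classes drawn, sides of narrow peaks stand highest in the first step with 6.12%. Peaks of 20 to under 200 bp, drawn as a single class, have 4.35% in that step. Those of 20 to 39 bp alone, which are not drawn, have 5.92%. In each step up to 1750 bp the intervals of narrow peaks lie above those of medium peaks. They overlap those of peaks of 1000 bp or more beyond 750 bp. Overlap with the class of 20 to under 200 bp begins beyond 1000 bp, and with medium peaks beyond 1750 bp.

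The neighbours of narrow peaks were about as wide as those of medium peaks. The nearest peak had a median width of 559 bp (interval 531 to 590) for narrow peaks and 545 bp (539 to 551) for medium peaks. Among the 280 narrow peaks with a neighbour within 1000 bp, that neighbour was at least 1000 bp wide in 116 (41.4%, interval 35.6 to 47.4), against 35.9% (34.2 to 37.6) for medium peaks, with overlapping intervals. The bands of narrow width differed in this share, with 53.8% (43.1 to 64.2) for peaks of 1 to 4 bp, 29.4% (19 to 41.7) for 5 to 9 bp and 38.7% (29.9 to 48.0) for 10 to 19 bp, in no order of width. The 116 are 8.26% (6.87 to 9.82) of all narrow peaks, and the same share was 6.88% (5.26 to 8.83) in peaks of 20 to 39 bp and 3.93% in medium peaks. A neighbour within 1000 bp on both sides was found for 18 narrow peaks (1.28%, interval 0.761 to 2.02) and 0.674% of medium peaks. The number of other peaks within 50 kb had a median of 6 for narrow peaks (quartiles 3 and 10) and 5 for medium peaks (quartiles 3 and 8).

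Beside promoter peaks, narrow peaks lay mostly on the side of the gene body, as did peaks of the other widths. For 36 narrow peaks (2.65%, interval 1.86 to 3.64) the nearest peak was within 1000 bp and covered start sites of protein-coding genes on 1 strand only, against 2.53% of peaks of 20 to 39 bp, 2.52% of peaks of 40 to 99 bp and 1.24% (1.11 to 1.38) of medium peaks. On the gene side lay 27 of the 36 (75%, interval 57.8 to 87.9), and on the upstream side 9. The gene-side share among medium peaks was 60.1% (54.7 to 65.4), so these intervals overlap. Within 2000 bp the gene-side shares were 74.3% (62.4 to 84.0) of 70 narrow peaks and 53.8% (49.9 to 57.6) of 679 medium peaks, and there they did not. The narrow peaks' interval did overlap those of peaks of 20 to 39 bp, at 63.9% (46.2 to 79.2), and of 40 to 99 bp, at 61.1% (51.3 to 70.3). It also overlapped that of peaks of 1000 bp or more, at 58.4% (53.7 to 62.9). Overlap of separate intervals does not show that shares are equal, and differences between these shares were not computed. Examples, chosen after their values were seen, follow. Next to Epha4, an ephrin receptor gene, a 13 bp peak at 77511159 to 77511172 on chromosome 1 lay 588 bp from the 5823 bp peak over the start. Next to Unc5a, a netrin receptor gene, a 1 bp peak lay 628 bp from a start peak of 3996 bp, and next to Rims1, a gene of the presynaptic active zone, a 4 bp peak lay 689 bp from one of 2160 bp. At the imprinted gene Gnas a 15 bp peak lay 644 bp from a start peak of 484 bp.

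The 5 narrow peaks closest to their neighbour and the 5 farthest from it show how much their surroundings varied. In Auts2, a gene of neuronal development, an 11 bp peak at 132434767 on chromosome 5 lay 501 bp from a peak of 369 bp. The same gap was found for a 2 bp peak 9100 bp upstream of Foxc1, a forkhead factor gene of mesenchyme, and for an 8 bp peak inside Dmrt1, a gonadal factor gene. Gaps of 502 bp and 503 bp were found 542.5 bp from an end of the non-coding gene Gm20083 and inside the ubiquitin ligase gene Ube4b, where the neighbour was the 1887 bp peak over its start. At the other extreme a 5 bp peak at 62197671 on chromosome 12 was 670967 bp from any other peak. The next 4 had gaps of 575291, 458267, 417770 and 400887 bp, and of these the 8 bp peak with a gap of 417770 bp lay inside Naaladl2. All 5 had no other peak within 50 kb.

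Narrow peaks made up 1.61% of the list, and few stood next to each other. Whether more or fewer did so than this share alone would give was not tested. Of the 1405, 1353 had wider peaks on both sides in the order of the list, and 52 stood in 25 runs of consecutive narrow peaks, 24 of them pairs. None of the runs held a gap of 1000 bp or less, so all 280 close neighbours were at least 20 bp wide. The nearest peak was itself narrow for 29 narrow peaks (2.06%, interval 1.39 to 2.95), against 1.68% for medium peaks. The longest run had 4 narrow peaks, of 3, 6, 7 and 14 bp, between 27855111 and 27867543 on chromosome 15 inside Trio, which encodes a guanine nucleotide exchange factor of axon guidance. Its gaps were 1341, 4682 and 6379 bp. The 4 tightest pairs had gaps of 1677 bp inside Mad1l1, a spindle checkpoint gene, 2220 bp at the non-coding genes Gm32611 and Gm40245, 2492 bp in Jarid2, a Polycomb partner gene, and 3317 bp in Ptp4a3, a phosphatase gene.

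All chromosomes except Y held narrow peaks. Among the 20, their share of peaks was lowest on chromosome 11 (1.16%, interval 0.898 to 1.47) and highest on chromosome 5 (1.89%, interval 1.54 to 2.28), and chromosome X had 1.62%. Chromosome Y had 0 of 16 peaks (interval 0 to 20.6%). The share of narrow peaks with a neighbour within 1000 bp was above that of medium peaks on 19 of 20 chromosomes. Chromosome 18 was the exception, with 9.09% of 44 narrow peaks against 9.37%. The highest value was 31.5% on chromosome 15, where medium peaks had 12.2%. With 26 to 112 narrow peaks per chromosome, these values are coarse.

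**Figure D5:**
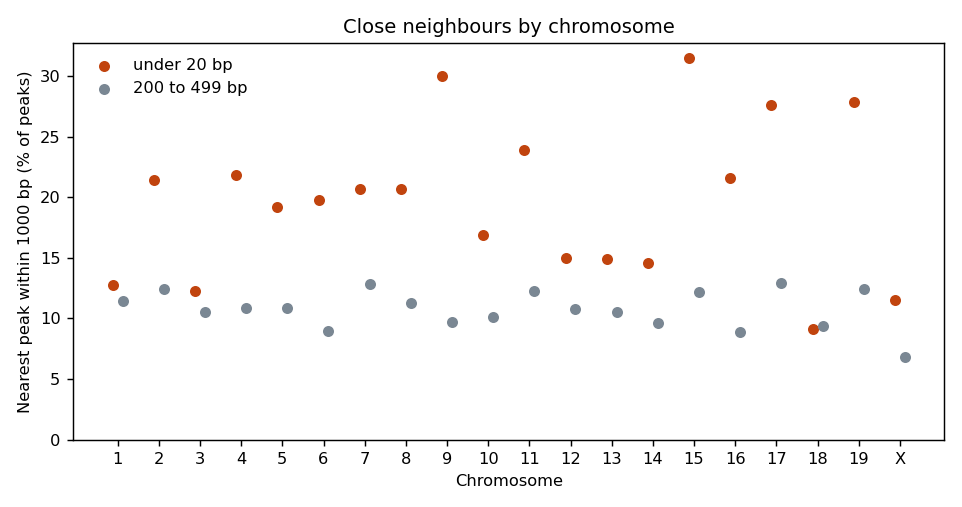
Share of peaks with the nearest peak within 1000 bp, for narrow peaks (orange) and medium peaks (grey), on each chromosome that holds narrow peaks. Narrow peaks are higher on 19 of 20 chromosomes, and on chromosome 18 they are at 9.09% against 9.37%.

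Few genes held several narrow peaks. At least 1 narrow peak lay inside 744 of 21774 protein-coding genes (3.42%), at least 2 inside 74 and at least 4 inside 4. Trio (295200 bp) had 6 among its 47 peaks, of 1 to 14 bp. Its 1 bp peak lay 577 bp from a peak of 2813 bp, and its 8 bp peak 793 bp from one of 636 bp. Magi1, a junction scaffold gene, had 4 among 40 peaks, Wwox, an oxidoreductase gene at a fragile site, 4 among 57, and Auts2 4 among 125. Those of Magi1 and Wwox were 3304 to 9415 bp from their nearest peak, and those of Auts2 501 to 21855 bp. A further 13 genes tied at 3, and the shortest of them by span were Plekha5, the tetraspanin gene Tspan9, Ldlrad3, the axonemal dynein gene Dnah8, the autophagy gene Uvrag and the myosin kinase gene Mylk. Gaps ranged from 686 to 1165 bp in Dnah8 and from 3596 to 30962 bp in Uvrag. Long genes have more room for peaks of every width, and the part of gene length in this ranking was not tested.

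At the genes named in the study's title there was no narrow peak. None lay within 50 kb of Dlx1, Dlx2 or Meis2, nor of the forebrain homeodomain gene Six3. The same held for 90.3% of all protein-coding genes. The nearest to Dlx1, which with Dlx2 encodes homeodomain factors of ganglionic eminence progenitors, was a 3 bp peak 52.6 kb from its span, inside Metap1d, and it was also the nearest to Dlx2. The nearest to Six3 was a 4 bp peak 242 kb away. For Meis2, a TALE homeodomain gene of striatal projection neurons, the nearest narrow peak, 8 bp wide and inside Mpped2, lay 9025 kb away.

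Of the 194 genes listed for striatal and other cell types, 22 had a narrow peak in or within 5000 bp of their span, and over all protein-coding genes the share was 4.18% (909 genes). Counts were 5 of 20 for striatal projection neuron factors (25%, interval 8.66 to 49.1), 3 of 15 for pan-neuronal genes, 3 of 18 for radial glia genes, 2 of 15 for ganglionic eminence regulators, 2 of 14 for interneuron genes and 2 of 18 for mature striatal markers. Genes of other cells gave 2 of 12 for microglia, 2 of 11 for skeletal muscle, 1 of 12 for endothelial and mural cells and 1 of 10 for oligodendrocytes. There was none among 16 cortical, 10 erythroid, 12 liver and 14 housekeeping genes. The median gene length was 118109 bp for striatal factors, 267382 bp for pan-neuronal genes and 17219 bp over all protein-coding genes, and the part of length in these counts was not tested.

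Gene ends of 3 of these regulators and markers had a narrow peak within 1000 bp. Beyond the far end of Gsx2, a homeobox gene of lateral ganglionic eminence progenitors, a 14 bp peak at 75078335 to 75078349 on chromosome 5 lay 449 bp from the gene, with a peak of 1003 bp at 630 bp on its right and another at 891 bp on its left. Inside Meis1, a TALE homeodomain gene, a 10 bp peak lay 590 bp from the far end, with its nearest peak, of 1872 bp, at 1069 bp. Upstream of C1qb, a complement gene of microglia, a 5 bp peak lay 679.5 bp from the start site, and its nearest peak was 6943 bp away. It was also the only narrow peak within 5000 bp of C1qc.

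Most other listed genes held theirs inside the gene, and C1qc, Sox9, Elavl3 and Myf5, whose narrow peak lay outside and over 1000 bp away, were added after their values were seen. Among striatal factors, the narrow peak lay 561 bp from a peak of 905 bp in Zfhx3, a homeodomain zinc finger gene, and 4734 bp from its neighbour in Ebf1, a factor gene of the direct-pathway lineage. In Mef2c, an activity-linked factor gene, the gap was 6377 bp. Lhx6, a LIM homeobox gene of interneurons, held a 6 bp peak 937 bp from its neighbour, and Sox6, also of that lineage, a 17 bp peak 16976 bp from its own. Among progenitor genes the gaps were 1941 bp in Nfia, 5263 bp in Nfib and 551 bp at Sox9, where the 10 bp peak lay outside the gene, 3571 bp from its nearer end. Mature striatal markers gave 15112 bp in the adenylyl cyclase gene Adcy5 and 1964 bp in the phosphodiesterase gene Pde10a. The pan-neuronal genes were Rbfox3, with 2 narrow peaks at gaps of 1189 and 1878 bp, Mapt, the tau gene, at 5052 bp, and Elavl3, whose 12 bp peak lay 2061 bp beyond its end inside Prkcsh with a gap of 630 bp. In genes of other cells the gaps were 795 bp in Pax7 and 3544 bp at Myf5, both myogenic factor genes, 25233 bp in the oligodendrocyte progenitor receptor gene Pdgfra and 13700 bp in the endothelial receptor gene Flt1. Gaps at these listed genes thus spanned from 551 bp to 25233 bp.

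The 149 peaks of 1 bp had values whose intervals overlapped those of the other narrow peaks. A neighbour within 1000 bp was present for 18.8% of them (interval 12.9 to 26), 19.2% of all peaks of 1 to 4 bp, these included, 18.1% of peaks of 5 to 9 bp and 21.8% of peaks of 10 to 19 bp. Gene ends held 6.71%, 6.61%, 9.57% and 8.44% of the same sets, with overlapping intervals. Just inside the limit, 17 of the 98 peaks of 18 to 19 bp had a neighbour within 1000 bp, and just outside it 11 of the 76 peaks of 20 to 21 bp. Only 5 of the 1 bp peaks lay within 1000 bp of an end of a protein-coding gene. These were at the depalmitoylase gene Abhd17a (35.5 bp from the end), the acid-sensing channel gene Asic3 (135.5 bp), Gtf2ird2 (270.5 bp), the interferon-induced gene Oasl2 (724.5 bp) and the splicing factor gene Hnrnph1 (782.5 bp). Their nearest peaks were 826 to 11017 bp away.

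Positions alone cannot settle what these peaks are. A neighbour within 1000 bp, as a margin of a wider region would have, was present for 19.9% of narrow peaks, against 12.9% of all wider peaks. Such a neighbour of at least 1000 bp was present for 8.26% of narrow and 4.55% of all wider peaks. No peak within 10 kb, as an isolated rise of the signal would have, was found for 25.7% of narrow and 31.7% of all wider peaks. In peaks of 20 to 39 bp these shares were 17.3%, 6.88% and 30.1%, in the same order. Their separate intervals overlapped those of narrow peaks, which does not show that the shares are equal. For a neighbour within 1000 bp, narrow peaks minus peaks of 20 to 39 bp gave 2.66 points (-0.657 to 5.97). Differences from that class in the other shares were not computed. Margins of wider regions and isolated rises of the signal cannot be told apart here without read counts.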

How the data were processed

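Per the submitters' processing notes, the build was mm10, and the tools named are Signac and Cell Ranger ATAC 1.2.0, with no role or order. The authors deposited 1 list of peak positions for both libraries, with no score or count, and analysis began from it. The sources used here do not state the peak caller, its threshold, any pooling of libraries or the treatment of doublets. Caller and threshold set every width. Positions keep the deposited numbering, which may count the first base as 0 or 1.

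Peaks were placed by midpoint against a RefSeq table of GRCm38.p6. Of its 49997 entries, 402 on scaffolds, on no main chromosome or with repeated symbols were left out, and 21774 of the 49595 kept were protein-coding. Start sites and strand came from the RefSeq promoter table, with 17492 protein-coding genes and without chromosome 18. Gaps run between facing edges of neighbouring peaks. Python 3.11.15, numpy 2.4.6, pandas 2.3.3 and scipy 1.17.1 were used, and the placing and gap code was tested on simulated data. Shares have Clopper-Pearson and medians order-statistic intervals. Peaks are not replicates, so no p-value is given.

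Members and gene lists were chosen with earlier results of these data known, and differences between classes and sides of promoter peaks were added after first values had been seen. The naming rule took title genes, listed genes with a narrow peak inside or near an end (1 symbol had no match), the 10 genes with most, ends near 1 bp peaks, extremes of gap, longest runs and promoters holding a narrow peak. The values of 1 listed gene are not reported here.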

Additional observations from a re-analysis of the deposited data

How the results depend on the processing

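Of 41 alternatives planned for the values of narrow peaks, 28 stayed close to the reported value and the other 13 moved. A width limit of 10 bp gave 860 peaks and one of 40 bp gave 2233. The share at gene ends was 4.56% with a window of 500 bp, 19.9% with 2500 bp and 3.99% with protein-coding genes only, and the share between genes was 28.2% with 2500 bp and 39.9% with protein-coding genes only. Measured between midpoints, the median distance to the nearest peak was 4275.5 bp and the share within 1000 bp was 7.12%. The share with a neighbour was 11.7% at a limit of 750 bp and 36.7% at 2000 bp. The median number of other peaks was 3 within 25 kb and 23 within 200 kb. The difference in close neighbours, narrow peaks minus peaks of 200 to under 500 bp, was recomputed in 13 ways chosen after seeing the data, and its interval lay above 0 in all 13. It was 5.44 points against peaks of 20 to under 200 bp, 4.05 against peaks of 1000 bp or more, 4.31 among peaks between genes, 5.31 between midpoints, 5.33 at 750 bp and 12.5 at 2000 bp. Peaks of 20 to 39 bp alone were not among the 13. Against them the difference was 2.66 points, with an interval that held 0 (-0.657 to 5.97). Each alternative counts other peaks or another distance, and the cause of the moved values was not tested. Depth is unknown and limits all widths. No paired analysis was possible because the list is not split by library, and for the same reason no library could be left out.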

Other observations

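Long stretches of the list held no narrow peak. Between successive narrow peaks on a chromosome there was a median of 40 wider peaks (quartiles 17 and 81). On chromosome 7, from 99694513 to 115848756, 606 wider peaks followed each other without a narrow one, over 16.2 Mb. On chromosome 2, from 106836726 to 125470595, there were 565 over 18.6 Mb, a stretch that contains Meis2. On chromosome 9, from 66902974 to 83837085, there were 544 over 16.9 Mb. Peaks of 20 to 39 bp were present in these stretches, with 1, 4 and 4 in the same order, as were 172, 187 and 137 peaks of 1000 bp or more. These stretches were picked after their values were seen and were not tested.

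Within 1000 bp of an annotated miRNA hairpin lay 3 narrow peaks (0.214%, interval 0.0441 to 0.623), against 0.130% of peaks of 200 to under 500 bp and 0.470% of peaks of 1000 bp or more. They were at Mir335 inside the imprinted gene Mest, at Mir483 inside the imprinted gene Igf2 and at Mir6974 inside the cytokine gene Lta, and were 2, 8 and 5 bp wide. Their nearest peaks lay 1110, 1228 and 8342 bp away.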
